A study of Pyrus pyrifolia with 6 samples.

Results

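The regions described here are short stretches of pear DNA that lay close together and had more CHH methylation in the skin of bagged than of unbagged fruit. CHH denotes a cytosine followed by 2 bases other than G (H is A, C or T), and a gain is a region whose mean level was higher in bagged skin. From the authors' table of differentially methylated regions, 11051 were selected: CHH gains on the 17 chromosomes, shorter than 300 bp, with another CHH gain of any length at a gap of 1000 bp or less. They make up 20.5% of the 53954 regions in the table and 26.2% of the 42128 CHH gains on chromosomes (95% exact binomial interval 25.8 to 26.7). Gains joined by such gaps are called a run below, and the selected regions lay in 5242 runs.

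Fruit skin of Pyrus pyrifolia 'Cuiguan', a pear whose skin turns partly russet (brown and corky), was analysed by whole-genome bisulfite sequencing. Bagged fruit (3 samples) had worn a single-layer white paper bag from 20 days after full bloom and a double-layer yellow-white one from 40 days. Unbagged fruit (3 samples) was left uncovered. All skin was taken at 115 days from trees of 7 years in 1 orchard. The table gives 1 mean level per group and region, with the replicates combined and no coverage. No value below therefore has a spread between replicates, its depth is unknown, and no test across samples could be made. Since direction, length and position chose the regions, their levels are given as a description. Both groups were sampled only at 115 days, so no region was followed over time. Where a level is said to go from X to Y, these are the unbagged and the bagged level. Skin is a tissue of several cell types, so more methylation in every cell and a larger share of methylated cells cannot be told apart.

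In plants, CHH cytosines have no matching cytosine on the opposite strand, so their methylation must be set anew after each replication of DNA. In Arabidopsis this is done by DRM2, a methyltransferase guided by small RNAs in RNA-directed DNA methylation, and by CMT2, which acts mostly inside long heterochromatic transposons. RNA-directed methylation there is known for short targets, such as small transposons and the edges of long ones. Genes, transposons and base sequence at the positions below were not analysed here, and no source used here names the genome build.

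The bagged level of clustered short gains was typically close to double the unbagged one. The median of the authors' mean levels was 12.1% without bags (quartiles 6.49 and 21.0) and 24.6% with bags (15.9 and 36.5). The difference had a median of 11.5 percentage points (quartiles 8.50 and 14.8, range 2.01 to 56.6). The ratio of the bagged to the unbagged level had a median of 1.92 (quartiles 1.64 and 2.41). At least a doubling was listed for 4933 of the 11051 regions, 44.6% (exact interval 43.7 to 45.6), beside 46.9% of all chromosomal CHH gains. A difference of 20 points or more was listed for 867, 7.85%, beside 9.01% of all chromosomal CHH gains. Such gains were themselves 90.3% of the 46661 CHH regions on chromosomes.

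**Figure D1:**
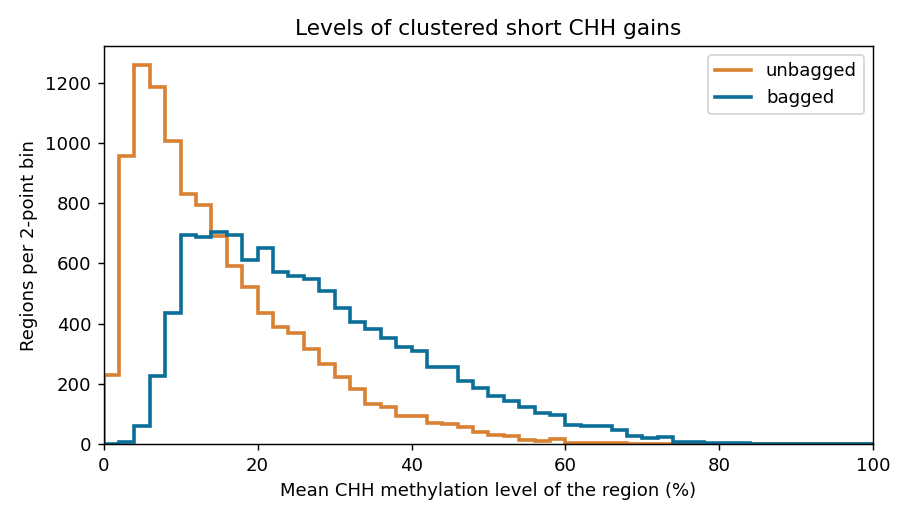
Number of clustered short CHH gains per 2-point bin of the authors' mean CHH level (x axis, percent), for unbagged and bagged skin. The unbagged levels are most frequent in the bin from 4 to 6%, with 42.0% of the regions under 10% and a median of 12.1%. The bagged levels spread from about 10% upwards, with a median of 24.6%.

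The size of the gain differed with the level in unbagged skin. In the 1806 regions under 5% in unbagged skin, the median level went from 3.52% to 10.7%, a median gain of 6.90 points and a ratio of 3.14. In the 3430 regions from 10 to 20%, it went from 14.3% to 26.9%, a gain of 11.7 points and a ratio of 1.82. In the 1084 regions from 30 to 50%, it went from 36.0% to 52.7%, a gain of 15.5 points and a ratio of 1.43. Gains in points were thus larger, and ratios smaller, in the classes with a higher unbagged level. Both are computed from that same level, in regions already called as different, so the pattern is given as a description. Isolated short gains of the same 3 classes had median gains of 6.92, 11.9 and 15.6 points and ratios of 3.28, 1.84 and 1.42. In the 121 regions at 50% or more, the median gain was 14.3 points (quartiles 13.3 and 15.8), within the quartiles of the 30 to 50% class (13.8 and 18.1). No region was listed at 0 in unbagged skin, and the lowest unbagged level was 0.407%. No rate of bisulfite conversion is listed beside the levels, and its part in such low values was not tested.

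Most of the regions were far under the limit on length. Their median length was 122 bp (quartiles 79 and 179) and they held a median of 35 CHH cytosines (22 and 51), or 28.6 per 100 bp. The 4164 regions of 51 to 99 bp rested on a median of 20 cytosines and had a median gain of 10.7 points. The 524 regions of 250 to 299 bp rested on 78 cytosines and had a median gain of 13.2 points. The median ratio was 1.92 in the former and 1.91 in the latter, so that the longer regions had higher levels in both groups. Just inside the limit on length, 82 clustered gains of 290 to 299 bp had a median gain of 12.7 points, and just outside it, 78 clustered gains of 300 to 309 bp had 13.5 points.

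Short gains without a close neighbour were much the same in level. For the 29205 isolated short gains the median was 11.4% unbagged and 24.3% bagged, a difference of 11.7 points and a ratio of 1.97, with a median length of 121 bp and 34 cytosines. At least a doubling was listed for 47.8% of them (exact interval 47.2 to 48.4), and an unbagged level under 10% for 44.4% (43.8 to 45.0) against 42.0% of the clustered ones (41.1 to 42.9). These shares differ by a few points in regions that are not independent of each other, and the differences were not tested. The 1872 gains of 300 bp or more had medians of 13.5% and 28.2% and a difference of 13.4 points. At the limit on gaps there was no step either: short gains whose nearest neighbour was 951 to 1000 bp away had a median gain of 11.45 points (438 regions), and those at 1001 to 1050 bp had 11.48 points (345 regions).

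Most runs were pairs. Of the runs that held a clustered short gain, 4332 had 2 regions, 755 had 3, 126 had 4, 26 had 5, and 1 each had 6, 8 and 9. Pairs thus held 74.9% of the clustered short gains (8281) and runs of 5 or more 1.32% (146). A long gain was part of 519 runs (9.90%), which held 684 of the short ones. Runs spanned a median of 810 bp (quartiles 537 and 1113), of which called regions covered a median of 38.3%. In all, the clustered short gains covered 1472 kb and their runs 4584 kb. The median gain was 11.5 points in pairs, 11.4 in runs of 3, 11.0 in runs of 4 and 11.9 in runs of 5, which shows no order with the size of the run. In runs of 3 or more, the short gains at the ends (1727) had a median unbagged level of 11.9% and a median gain of 11.4 points, and those inside (1043) had 12.8% and 11.2 points, with quartiles that mostly overlap (8.48 and 14.7 for the gains at the ends, 8.63 and 14.6 for those inside).

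Close neighbours were frequent along the whole scale of gaps, without a break at the limit used. Of all CHH gains on chromosomes, 27.6% had another gain within 1000 bp. Neighbouring gains were separated by up to 1000 bp in 6356 cases, by 1001 to 2000 bp in 3864 and by 2001 to 3000 bp in 3072. The joined gaps had a median of 425 bp (quartiles 207 and 692). The most crowded class was 51 to 100 bp with 775 pairs, against 348 pairs from 101 to 150 bp and 277 from 951 to 1000 bp. No gap between CHH regions was below 50 bp, in either direction of change, and the smallest gap was 50 bp in CG and 52 bp in CHG context too. What part of the closest pairs are single stretches divided by the region caller was not tested.

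**Figure D2:**
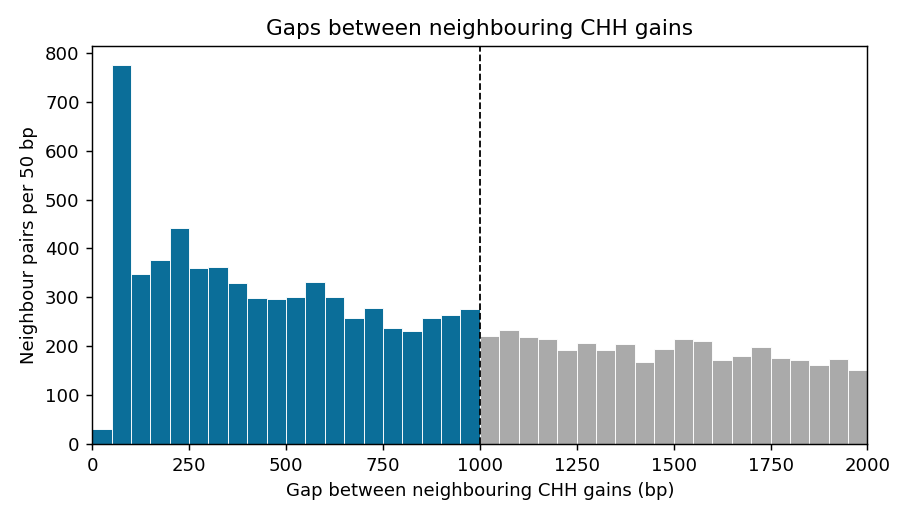
Number of pairs of neighbouring CHH gains per 50 bp of gap (x axis, bp), with the limit of 1000 bp as a dashed line and joined gaps in blue. The bin of 51 to 100 bp holds 775 pairs and the next one 348. The numbers reach 442 pairs at 201 to 250 bp and are 277 just inside and 221 just outside the limit.

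The closest neighbours resembled each other in level, and those further apart did so less. Across the 796 pairs of gains at a gap of 50 to 99 bp, Pearson's r was 0.61 for the unbagged level, 0.64 for the bagged level and 0.57 for the difference. It was 0.37, 0.40 and 0.36 across 1171 pairs at 100 to 249 bp, and 0.22, 0.24 and 0.25 across 2745 pairs at 500 to 1000 bp. The 3864 pairs at 1001 to 2000 bp, outside the limit, had 0.22, 0.25 and 0.25, so that the outer part of the runs was no more alike than gains just beyond them. Over 10000 bp apart (16114 pairs) the values were 0.07, 0.07 and 0.07. The points come from the same libraries, and these values are a description across regions. Depth, base composition and the way the caller computed the levels are not known here, and their part in the likeness was not tested.

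**Figure D3:**
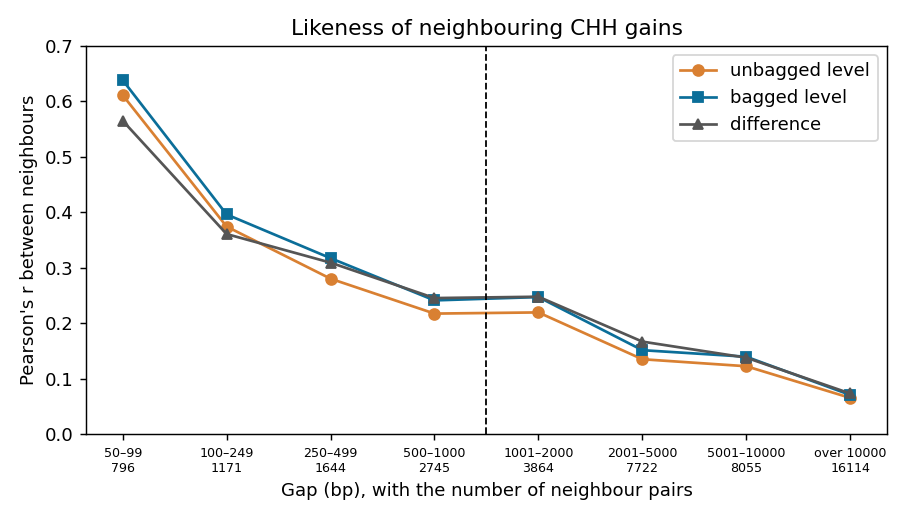
Pearson's r between neighbouring CHH gains for the unbagged level, the bagged level and the difference (y axis), by gap in bp with the number of pairs under each class. The 3 lines fall from 0.57 to 0.64 at 50 to 99 bp to 0.22 to 0.25 at 500 to 1000 bp and stay there just past the dashed limit of 1000 bp.

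Even within a run, levels could be far apart. The spread of gains in a run, largest minus smallest, had a median of 3.76 points (quartiles 1.68 and 6.77), while that of unbagged levels had a median of 7.56 points (3.04 and 15.0). Unbagged levels were within 5 points of each other in 419 of 796 pairs at 50 to 99 bp (52.6%), and in 2642 of all 6356 joined pairs (41.6%). In 70.4% of the joined pairs (4473) the neighbour with the higher unbagged level also had the larger gain in points, and in 16.2% (1028) it had the larger ratio. The first share was 71.3% for neighbours over 10000 bp apart, so over all joined pairs it was no higher than that. At gaps of 50 to 99 bp and of 100 to 249 bp it was 66.8%, against 72.0% at 250 to 499 bp. Gain and ratio are both computed from the unbagged level, in regions already called as different, so these shares are given as a description. The sharpest contrast among pairs with at least 10 cytosines each was on chromosome 9. There, 15 cytosines from 21164146 to 21164209 had 67.1% in unbagged and 81.5% in bagged skin, and 189 bp further on, 44 cytosines from 21164399 to 21164572 had 1.05% and 5.93%.

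The run with the most regions was on chromosome 17 from 8470759 to 8477204, with 8 short gains and 1 long one over 6446 bp and 464 cytosines in all. From left to right, its first region (8470759 to 8470909) had 25.6% in unbagged and 37.5% in bagged skin. The second (8471528 to 8471731) had the highest levels, 34.7% and 53.7%. The third (8472046 to 8472137) had 14.1% and 24.0%, and the fourth (8472298 to 8472509) had 26.6% and 40.4%. Thus these left regions of the run had 14.1 to 34.7% in unbagged skin, at ratios of 1.46 to 1.70. The fifth (8473172 to 8473254) had 18.4% and 29.1%. The long region (8474064 to 8474468) had 12.6% and 24.9%, and the seventh (8475106 to 8475294) had the smallest gain, from 4.61% to 10.7%. The eighth (8476237 to 8476481) had the largest gain, from 17.5% to 46.8%, and the last (8477034 to 8477204) had the largest ratio, 4.56, from 4.09% to 18.7%. The last 3 regions thus had the highest ratios of the run, 2.32 to 4.56. This run also had the largest sum of gains weighted by cytosines.

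**Figure D4:**
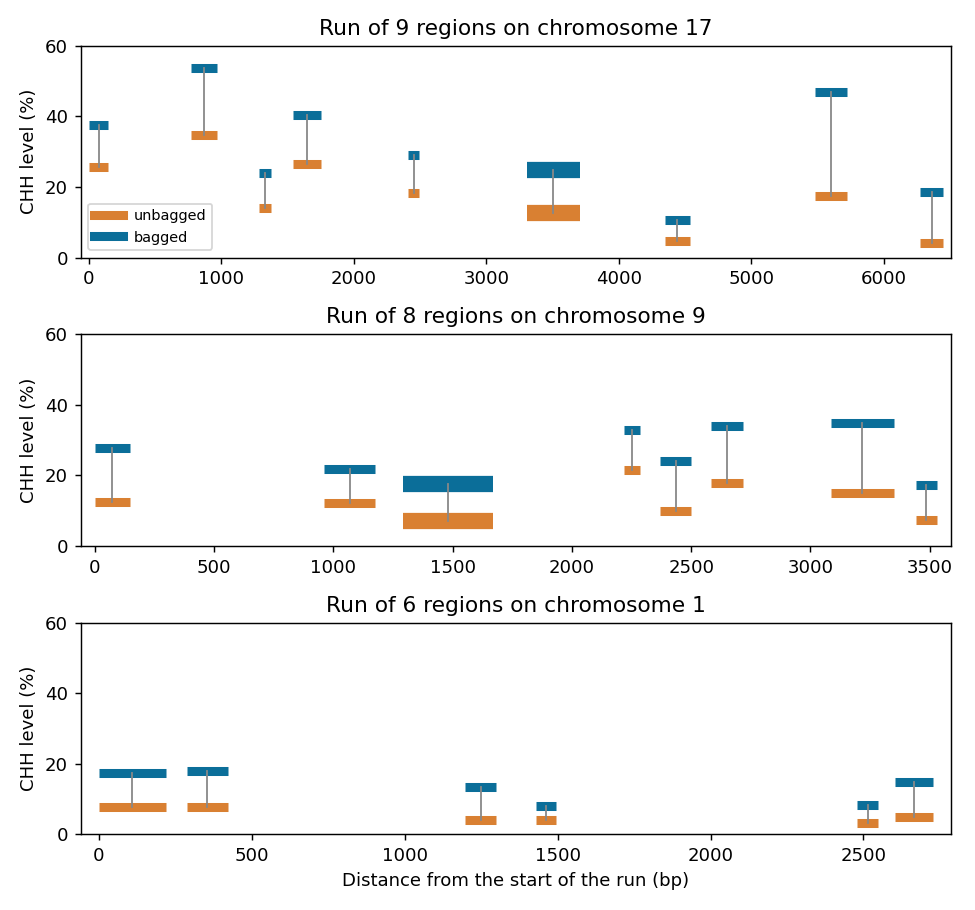
The 3 runs with the most regions, drawn by distance from the start of the run in bp (x axis) and the authors' mean CHH level in percent (y axis). Each region is a bar as long as the region, orange for unbagged and blue for bagged skin, with thick bars for long gains. The run on chromosome 17 mixes unbagged levels from 4.09 to 34.7%, and the run on chromosome 1 stays between 3.09 and 7.69%.

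The next run, on chromosome 9 from 2764852 to 2768381, had 7 short gains and 1 long one, with unbagged levels of 6.99 to 21.5% and gains of 9.55 to 19.7 points. Its last 5 regions followed each other at gaps of 82 to 367 bp. The run of 6 short gains on chromosome 1, from 20192293 to 20195019, was low and even: unbagged levels of 3.09 to 7.69% and gains of 3.82 to 10.1 points, at ratios of 1.93 to 3.25. On chromosome 17 from 24413401 to 24416844, 5 short gains had unbagged levels of 9.29 to 52.6%, highest at the left end, with gains of 9.23 to 17.8 points. On chromosome 15 from 19487639 to 19491049, the region at the right end (19490788 to 19491049) went from 6.74% to 39.1%, while the other 4 gained 10.8 to 15.2 points. By sum of gains weighted by cytosines, the runs after the one on chromosome 17 were on chromosome 10 (28452101 to 28454471, 4 regions, gains of 11.7 to 26.7 points) and on chromosome 4 (18953324 to 18955768, 4 regions, of which 3 were long, gains of 11.5 to 14.0 points). None of these 7 runs overlapped a CG region, a CHG region or a CHH loss of the table.

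Among clustered short gains with at least 10 cytosines, the largest was on chromosome 13 from 19035947 to 19036058, where 12 cytosines went from 3.22% to 59.8%. Its neighbour 612 bp to the left, 73 cytosines over 315 bp, went from 23.7% to 50.1%. On chromosome 8 from 5055223 to 5055361, 12 cytosines went from 5.89% to 62.5%, and on chromosome 7 from 3477244 to 3477358, 16 cytosines went from 9.71% to 65.2%. At the latter the neighbour 66 bp away (3477055 to 3477177) had 36.3% in unbagged skin. Its bagged level of 63.2% was close to that of the region itself. On chromosome 3 from 3051798 to 3051926, 20 cytosines went from 4.36% to 54.5%, and on chromosome 17 from 21952076 to 21952340, 50 cytosines went from 4.28% to 52.0%. In these 5 runs, all pairs, the neighbour had an unbagged level of 8.23 to 36.3% and gained 13.4 to 27.0 points.

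Among regions with at least 5% in unbagged skin, the ratio was highest at the place on chromosome 8 just named, at 10.6. It was 10.2 on chromosome 17 from 17134451 to 17134648 (5.15% to 52.3%), 8.20 on chromosome 1 from 4822910 to 4823017 (5.31% to 43.6%), 7.96 on chromosome 15 from 44134754 to 44134939 (5.50% to 43.8%) and 7.74 on chromosome 10 from 26666091 to 26666218 (5.01% to 38.7%). At the other end, the most methylated region in unbagged skin was the one on chromosome 11 from 26168826 to 26168883, whose 14 cytosines had 78.1% unbagged and 88.4% bagged. The next were on chromosome 7 from 15042700 to 15042813 (70.7% to 82.8%), chromosome 5 from 15362757 to 15362841 (69.1% to 82.3%), chromosome 17 from 13092905 to 13092958 (68.8% to 81.5%) and the place on chromosome 9 with 67.1%. These 5 regions were 54 to 114 bp long and gained 10.2 to 14.5 points.

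Overlap with called regions of the other contexts was then counted. A CG region of the table shared at least 1 bp with 45 of them (0.407%, exact interval 0.297 to 0.544) and a CHG region with 36 (0.326%, 0.228 to 0.451). Together 72 of them, 0.652% (0.510 to 0.820), overlapped either, against 0.651% of the isolated short gains (0.562 to 0.750) and 1.55% of the long ones (1.04 to 2.22). The CG region was also higher in bagged skin in 31 of 45 pairs, 68.9% (53.4 to 81.8), and the CHG region in 31 of 36, 86.1% (70.5 to 95.3). Among isolated short gains these shares were 82.8% of 99 pairs (73.9 to 89.7) and 94.8% of 116 (89.1 to 98.1). The intervals of the 2 classes overlap in both contexts, and the differences were not tested. The share of all CG and of all CHG regions that were higher in bagged skin was not computed. The shares of pairs are therefore not read as a link between the contexts at these places.

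In 7 combinations, all 3 contexts were higher in bagged skin. With the largest sum of differences, CHH on chromosome 2 from 25823374 to 25823580 went from 10.4% to 20.6%, CG (25823448 to 25823728) from 41.8% to 76.5% and CHG (25823335 to 25823649) from 31.2% to 64.1%. On chromosome 5, CHH from 27072487 to 27072615 went from 22.1% to 37.4%, CG (27072602 to 27072724) from 47.1% to 83.1% and CHG (27072521 to 27072587) from 29.9% to 53.7%. That CHG region held only 7 cytosines. On chromosome 12 the CHH region from 23317687 to 23317912 was nearly free of methylation in unbagged skin: CHH went from 1.82% to 13.7%, CG (23317764 to 23317824) from 12.1% to 51.01% and CHG (23317695 to 23317910) from 4.51% to 27.7%. The CG region there held only 6 cytosines. The next combinations were on chromosome 15 from 40501815 to 40501872 (CHH 5.67% to 13.5%) and on chromosome 17 from 28134418 to 28134487 (CHH 10.1% to 17.6%), with CG and CHG gains of 20.6 to 24.0 points. In 2 further combinations, on chromosomes 6 and 16, CG and CHG were lower.

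In the opposite case, CHH was higher where CG or CHG was lower in bagged skin. This was so for 14 CG and 5 CHG pairs, in 16 runs. The largest such loss was on chromosome 6, where a run of 3 short gains lay among CG and CHG losses. Its regions went from 7.49% to 21.6% (16503593 to 16503780), from 8.87% to 21.5% (16504207 to 16504364) and from 25.6% to 45.8% (16504950 to 16505162). At the same place, CG regions went from 82.7% to 46.3% (16503703 to 16503851) and from 61.5% to 19.4% (16504937 to 16505238). CHG regions went from 55.6% to 31.9% (16504029 to 16504197), from 60.6% to 12.3% (16504853 to 16504936) and from 36.2% to 12.1% (16505121 to 16505327). These CHG regions held 21, 5 and 20 cytosines, and only the last shared bases with a CHH gain. All 5 of these CG and CHG regions were lower in bagged skin. CHH was higher in the 3 regions by the selection rule, and the run was picked for its overlapping losses. No link between direction and context is therefore read from it. The other losses with the largest size were in CG context, on chromosome 6 from 17901294 to 17901394 (63.2% to 30.9%, with CHH from 4.83% to 22.9%), on chromosome 12 from 14319679 to 14319765 (64.5% to 33.0%, with CHH from 20.0% to 53.5%) and on chromosome 1 from 19663113 to 19663304 (63.7% to 33.9%, with CHH from 7.30% to 14.3%).

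CHH losses also lay inside runs. Of the 4533 CHH losses on chromosomes, 31 lay between the gains of a run (0.684%, exact interval 0.465 to 0.969), in 28 runs. Runs spanned 0.943% of the chromosomes up to their last listed regions, so a share of this size is not read as few or many. The median level of these losses was 25.2% in unbagged and 9.08% in bagged skin. The runs around them had median levels of 15.3% and 30.7%, with a run counted once for each loss inside it. Gains and losses are defined by direction, so the opposite order of the groups is by construction. On chromosome 3, for example, 3 losses lay between gains: the gain from 1964764 to 1964863 went from 27.2% to 44.9%, the losses from 1965258 to 1965718 had unbagged levels of 31.6, 62.9 and 49.5% and bagged levels of 17.6, 43.2 and 28.3%, and the gain from 1965857 to 1966097 went from 38.4% to 59.4%. In 2 runs a CHH loss lay inside and a short gain also overlapped a lower CG or CHG region. The first, on chromosome 9, had a gain from 16.9% to 40.8% (13686988 to 13687249), a CG loss from 74.9% to 50.02% (13687235 to 13687285) and a CHH loss from 49.1% to 16.9% (13687927 to 13688031). The second, on chromosome 16, had a gain from 23.9% to 38.8% (17460900 to 17461062), a CG loss from 90.9% to 66.3% (17460908 to 17461006) and a CHH loss from 13.2% to 5.97% (17461518 to 17461653). The runs of this paragraph, and the choice of the chromosome 6 run to be set out in full, were made after the values were seen.

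Clustered short gains were spread over all 17 chromosomes. Their share of the CHH gains of a chromosome was lowest on chromosome 6, at 23.2% (473 of 2037, exact interval 21.4 to 25.1), and highest on chromosome 10, at 27.7% (739 of 2668, 26.0 to 29.4). Except for chromosome 6, the interval of every chromosome included the 26.2% of all. That share includes chromosome 6, 17 intervals were compared and no difference was tested, so chromosome 6 is not read as an exception. The median unbagged level ran from 10.9% on chromosome 13 to 13.2% on chromosome 15, and the median gain from 10.9 points on chromosomes 11 and 16 to 12.0 points on chromosomes 12 and 14. With each chromosome divided into 5 equal parts up to its last listed region, the share was 24.3% in the first part (23.3 to 25.2), 26.7%, 27.4% and 27.2% in the inner parts, and 25.04% in the last (24.1 to 26.0). The middle part also held the most CHH gains, 9453 against 7518 in the first and 7739 in the last. The part of this density in the shares was not tested. The intervals treat regions as independent, but the rule selects short neighbours together, so the intervals are probably too narrow even for counting error.

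**Figure D5:**
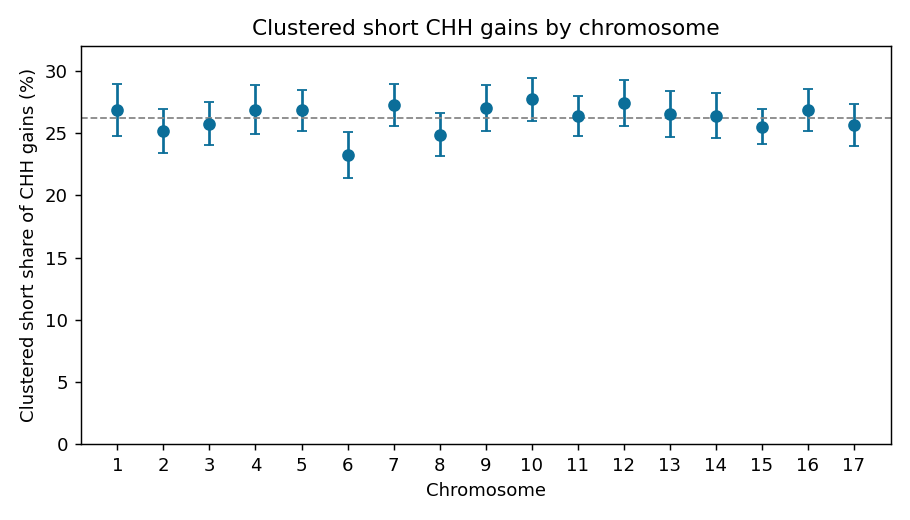
Share of the CHH gains of each chromosome that are clustered and short (y axis, percent), with 95% exact binomial intervals as bars and the share over all chromosomes, 26.2%, as a dashed line. Only the interval of chromosome 6, at 23.2%, lies wholly under the line, and this difference was not tested.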

How the data were processed

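CTAB-extracted skin DNA went into Accel-NGS Methyl-Seq bisulfite libraries, per the labels' protocols. The submitters' processing notes name FastQC and Bismark 0.16.3. The caller of the regions, its thresholds and the genome build were not given in the sources used here. The authors deposited mean methylation levels as a fraction per region and group, printed here as percent. Their table also holds, per the file headers, a difference, which equals bagged minus unbagged in every region, and an area statistic, taken as the caller's score per region and used only in an alternative. The numbers of cytosines and lengths, in the deposited table as other values, were used as given. Positions are the table's, both ends included. With 1 mean per group, depth and replicate spread are unknown.

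Gains were joined into runs, and overlaps of at least 1 bp counted, in Python 3.11.15 with pandas 2.3.3. Exact (Clopper-Pearson) 95% intervals came from scipy 1.17.1. They treat regions as independent, which neighbours are not, and cover no spread between samples. The procedures were tested on simulated data with planted runs. Clustered short gains were named among those with at least 10 cytosines (the overlapping CG, CHG and CHH regions and neighbours printed beside them had no such minimum): the 5 largest gains, the 5 largest ratios at 5% or more in unbagged skin, the 5 highest unbagged levels, the 5 largest common changes of all contexts, at most 5 overlaps with a CG or CHG loss by size of the loss, the 5 runs with the most regions and the 3 with the largest weighted gain. The selection rule and lists were chosen with earlier results of these data known. Alternatives changed the gap, the length, the cytosines, the difference, the area statistic and the overlap.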

Additional observations from a re-analysis of the deposited data

How the results depend on the processing

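Across the alternatives 79 values were computed, and 61 were within their limits: a factor of 1.5 for a number, the exact interval for a share and the quartiles for a median. The rule fixes the direction, and the quartiles are a wide limit for a median, so this tally is not read as stability. Numbers and shares moved with the limits that define the selection. With a gap of 500 bp there were 6543 clustered short gains (15.5% of CHH gains) in 3265 runs, 10 of them in runs of at least 5, and with 2000 bp 16972 (40.3%), 744 of them in such runs. With a length under 200 bp the share was 22.1%, with no upper length 27.6%, and with at least 10 cytosines 25.7%. With a difference of at least 10 points, 6892 regions were left (16.4% of CHH gains), 94 in runs of at least 5, and 35.3% were at least doubled. The medians were then 17.9% unbagged, 32.9% bagged and 13.9 points, against 12.1%, 24.6% and 11.5 points. With at least the median absolute area statistic, 5393 were left (12.8%), 66 in runs of at least 5, and 0.853% overlapped a CG or CHG region. These alternatives select fewer or more regions by construction. The cuts on cytosines, difference and area statistic were applied after all CHH gains had been joined into runs. A run of at least 5 can therefore count gains that fail the cut, and a region left may have no neighbour that passes it. No paired analysis was possible because the table holds 1 mean per group, so replicates could not be left out either. Depth is unknown and sets no limit that could be computed.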
